A study of Carex littledalei with 18 samples.

Results

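Leaves of Kobresia littledalei (Carex littledalei), a sedge of alpine grassland, were examined after 12 h at -5 °C and set against the pooled leaves of 0 h and 4 h. The comparison used 3 libraries of 12 h and 5 distinct libraries of 0 h and 4 h, which is 8 of the 17 distinct libraries in the series. All plants came from natural stands in Tibet, recovered in a nursery and stood in pots in a warm greenhouse before the move to a freezing room. Per the labels they were wild plants with no named genotype, and plant age is not given. A separate pot served each of the 6 times of the series (0, 0.5, 4, 12, 24 and 48 h), with 3 samples a time. The 0 h plants were the starting state and the 4 h plants had 4 h at the same temperature, so the pool holds both warm and briefly chilled leaves.

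The columns given as 0 h replicate 1 and 4 h replicate 1 held the same value in each of 214531 rows, the only such case among 153 pairs of columns. They were counted as 1 library, written here as the library of 0 or 4 h, which belongs to the pool under either label. Totals ran from 18895399 to 32345479 estimated counts a library over the series. By rank over genes, 12 h libraries correlated with each other at 0.803 to 0.820 (3 pairs) and with pool libraries at 0.762 to 0.923 (15 pairs), as a description of libraries that share 1 assembly. Time and pot cannot be told apart, nor can cold from the time that had passed, since no plants kept warm for 12 h were analysed here. Nothing in the labels shows that the replicates of a time came from separate plants, so p-values measure only the spread between these samples, which may be technical.

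In plants studied as models, such as Arabidopsis, chilling and freezing set off a transcriptional cascade in which early regulators of the CBF family switch on a later and larger set of cold-regulated genes. The products of that later set include proteins that protect membranes and other proteins when water is withdrawn by ice, and enzymes that make compatible sugars. Which of these functions the genes below have is not known here. The files hold identifiers of an assembly made without a genome, not gene names, so lists of cold genes, and markers that would check the leaf label, were not run. An assembled gene is a cluster of transcripts, and a component is a wider set of clusters that share sequence, so copies and fragments of 1 plant gene can stand as several genes. In whole leaves, fewer cells of a type and less RNA per cell cannot be told apart.

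After 12 h at -5 °C most of the called genes had gone up from a low level. Of 61998 genes tested, 50 were higher at 12 h than at 0 and 4 h (0.0806% of genes tested) and 2 were lower (0.00323%), at an adjusted p under 0.05 in edgeR's quasi-likelihood test. The 50 higher genes lay in 35 components, and their log2 fold changes ran from 1.34 to 8.53 with a median of 4.94, where the median over all tested genes was 0. Their mean levels had a median of 24.8 CPM at 12 h, against 0.711 CPM in the pool. CPM is a gene's count divided by the library's total and scaled for composition. All 50 had reads in at least 1 pool library, and 4 had 3 or fewer reads over the whole pool, so their fold changes are the least precise. Those 4 passed the filter on low counts only through libraries outside the pool, 12 h among them. That favours a positive fold change, and more of the 50 may have passed that way. At an unadjusted p under 0.05 the counts were 3260 higher (5.26%) and 1728 lower (2.79%). The counts moved widely with the test and the libraries: DESeq2 called 464 higher and 165 lower, edgeR with no filter on low counts called 1380 and 421, and edgeR on the 8 compared libraries alone called 20 and 0, which ended both lower calls.

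**Figure D1:**
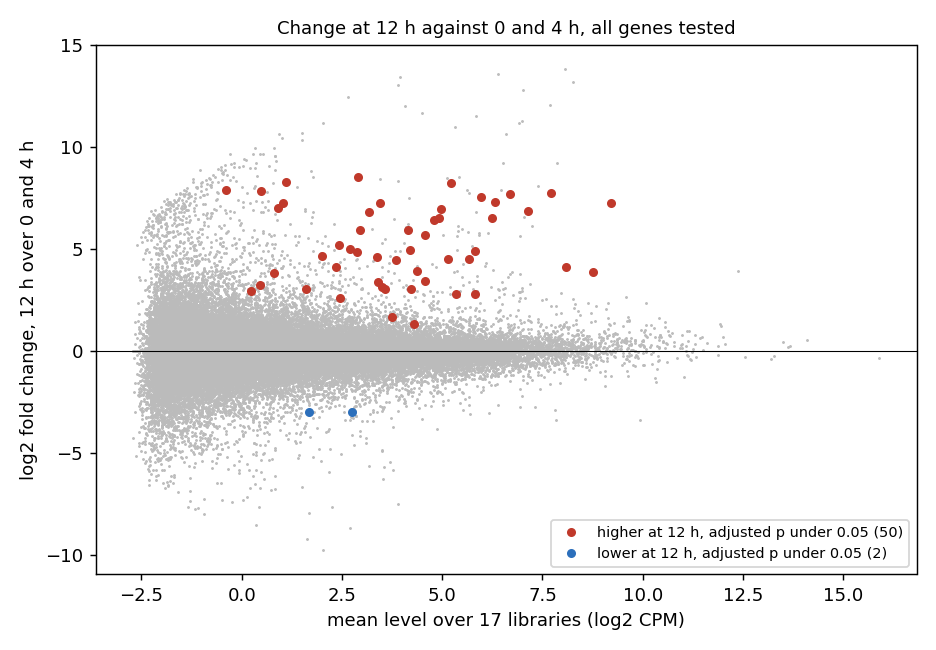
Each point is 1 of the 61998 tested genes; the horizontal axis is its mean log2 CPM and the vertical axis its log2 fold change, 12 h over 0 and 4 h. The 50 genes called higher and the 2 called lower are coloured, and most genes with large changes stay uncalled.

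Fold size alone did not decide a call. There were 92 genes with a positive log2 fold change of 8 or more, of which 3 were called, and 4 genes with an equally large fall, of which 0 were called. Among the 89 uncalled genes on the higher side, 14 had at least 90% of their 12 h level in 12 h replicate 1, 13 had it in replicate 2 and 0 in replicate 3. At the edge of the threshold, the last genes called had adjusted p of 0.0481 at a log2 fold change of 7.31 and also at 1.70, and the first uncalled genes had 0.0516 at 4.58 and 0.0555 at 3.19.

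The gene called with the smallest p was TRINITY_DN203178_c3_g3. It had 139, 196 and 87.9 CPM in the 3 libraries of 12 h, against 0.410 and 0.273 CPM in the other 0 h libraries, 1.18 and 0.903 CPM in the other 4 h libraries and 0.551 CPM in the library of 0 or 4 h. Each 12 h library lay far above every pool library. Its log2 fold change was 7.71 with an SE of 0.575 (adjusted p = 6.73e-06, edgeR), where the SE is back-calculated from the test statistic. The 0.5 h libraries had 0.358, 0.243 and 0.0568 CPM, those of 24 h had 249, 144 and 219 CPM, and those of 48 h had 132, 363 and 213 CPM. The gene was thus at a low level in all libraries up to 4 h and at a high level in all 9 libraries from 12 h on.

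TRINITY_DN212538_c1_g1, the next by p, had 1161, 1424 and 510 CPM at 12 h, against 7.52 and 1.99 CPM in the other 0 h libraries, 7.68 and 7.44 CPM in the other 4 h libraries and 8.93 CPM in the library of 0 or 4 h. The groups did not overlap. Its log2 fold change was 7.26 with an SE of 0.543 (adjusted p = 6.73e-06, edgeR). Its 0.5 h libraries had 0.860, 1.38 and 1.88 CPM, its 24 h libraries 1549, 1095 and 1757 CPM, and its 48 h libraries 681, 1019 and 879 CPM. In the authors' table scaled for gene length, it averaged 989 ± 434 units at 12 h (SD, n = 3) against 9.50 ± 4.09 in the pool (SD, n = 5). Among the tested genes only, that put it at rank 114 at 12 h and rank 11092 in the pool. By the same measure, 2 of the 50 genes were among the 100 most abundant tested genes at 12 h and 13 among the first 1000. In the pool 0 were in either class. These ranks use means over the libraries of a group. The 50 include genes high in only some 12 h libraries, such as 1 with 2149, 150 and 1.92 CPM, so a rank need not hold in each library.

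**Figure D2:**
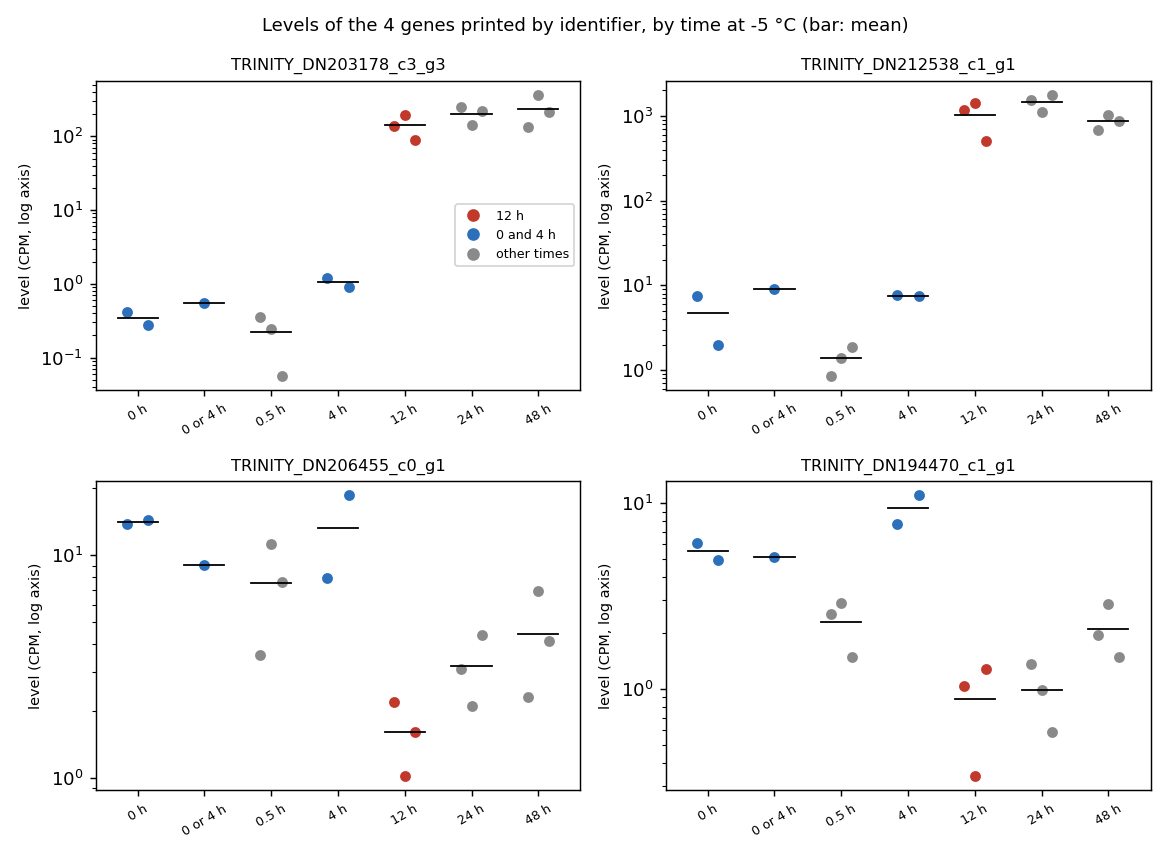
CPM (log axis) of the 4 genes given by identifier, 1 point a library, at each time from 0 to 48 h, with the identical column drawn as 0 or 4 h and a bar at each mean. The 2 higher genes step up between 4 and 12 h and stay up; the 2 lower genes have their 12 h points below all points of 0 and 4 h.

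The 2 lower genes were detected in every library. TRINITY_DN206455_c0_g1 had 2.20, 1.02 and 1.61 CPM at 12 h, against 13.9 and 14.4 CPM in the other 0 h libraries, 7.90 and 18.6 CPM in the other 4 h libraries and 9.07 CPM in the library of 0 or 4 h. Its log2 fold change was -2.98 with an SE of 0.511 (adjusted p = 0.0309, edgeR). All 3 libraries of 12 h lay below all 5 of the pool. The 0.5 h libraries had 3.58, 11.2 and 7.62 CPM, so 2 of those 3 were also below the pool. Later libraries were low too, with 3.09, 2.10 and 4.40 CPM after 24 h and 2.31, 6.91 and 4.13 CPM after 48 h. On the length-scaled table the gap was smaller, at 0.580 ± 0.208 units at 12 h (SD, n = 3) against 2.37 ± 0.820 in the pool (SD, n = 5).

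TRINITY_DN194470_c1_g1 had 1.04, 0.340 and 1.28 CPM at 12 h, against 6.09 and 4.95 CPM in the other 0 h libraries, 7.75 and 10.99 CPM in the other 4 h libraries and 5.10 CPM in the library of 0 or 4 h. Its log2 fold change was -2.96 with an SE of 0.512 (adjusted p = 0.0328, edgeR). The groups did not overlap here either. The 0.5 h libraries had 2.54, 2.89 and 1.48 CPM, the 24 h libraries 1.37, 0.988 and 0.584 CPM, and the 48 h libraries 1.96, 2.86 and 1.48 CPM, so all 9 libraries of the other times lay below the pool too. Neither lower gene kept its call in every fit that left out 1 of the 17 libraries, although the direction held in all of them, with log2 fold changes of -3.28 to -2.73 for TRINITY_DN206455_c0_g1 and -3.33 to -2.58 for TRINITY_DN194470_c1_g1. Both lost the call on leaving out replicate 1 or 2 of 12 h, replicate 2 or 3 of 0 h, or replicate 3 of 4 h or of 48 h. TRINITY_DN206455_c0_g1 also lost it on leaving out replicate 3 of 12 h or of 0.5 h. TRINITY_DN194470_c1_g1 also lost it on leaving out replicate 1 or 2 of 0.5 h, replicate 2 of 4 h or of 24 h, or replicate 1 of 48 h.

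Widening the threshold to an adjusted p under 0.1, an addition made after the data were seen, gave 130 higher genes (0.210%) and 9 lower (0.0145%). The 9 lower genes had log2 fold changes of -3.70 to -1.26. Their mean levels had a median of 2.40 CPM at 12 h against 12.8 CPM in the pool, and the same medians for 0.5, 24 and 48 h were 7.48, 4.05 and 9.50 CPM. One of them had 48.1, 27.6 and 29.7 CPM at 12 h, against 118 to 388 CPM over the 5 pool libraries. In each of the 9, the 3 libraries of 12 h lay below the 5 of the pool, which their choice by p in these same libraries favours. Over all tested genes, 1323 (2.13%) had their 12 h libraries wholly below the pool and 1618 (2.61%) wholly above it.

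Of the 50 higher genes, 45 had all 3 libraries of 12 h above all 5 of the pool and 5 did not. Over all tested genes 2.61% were wholly above the pool. The same libraries chose the 50 genes, which favours such a separation, so the 45 are a description only. The 50 can be parted further by what they did at other times, a grouping made after the values were seen and not tested as such. In this grouping 32 genes stayed high, being called at 24 and 48 h against 0.5 h, 4 were called lower again at 48 h than at 12 h, 5 overlapped with the pool, and 9 had other courses.

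**Figure D3:**
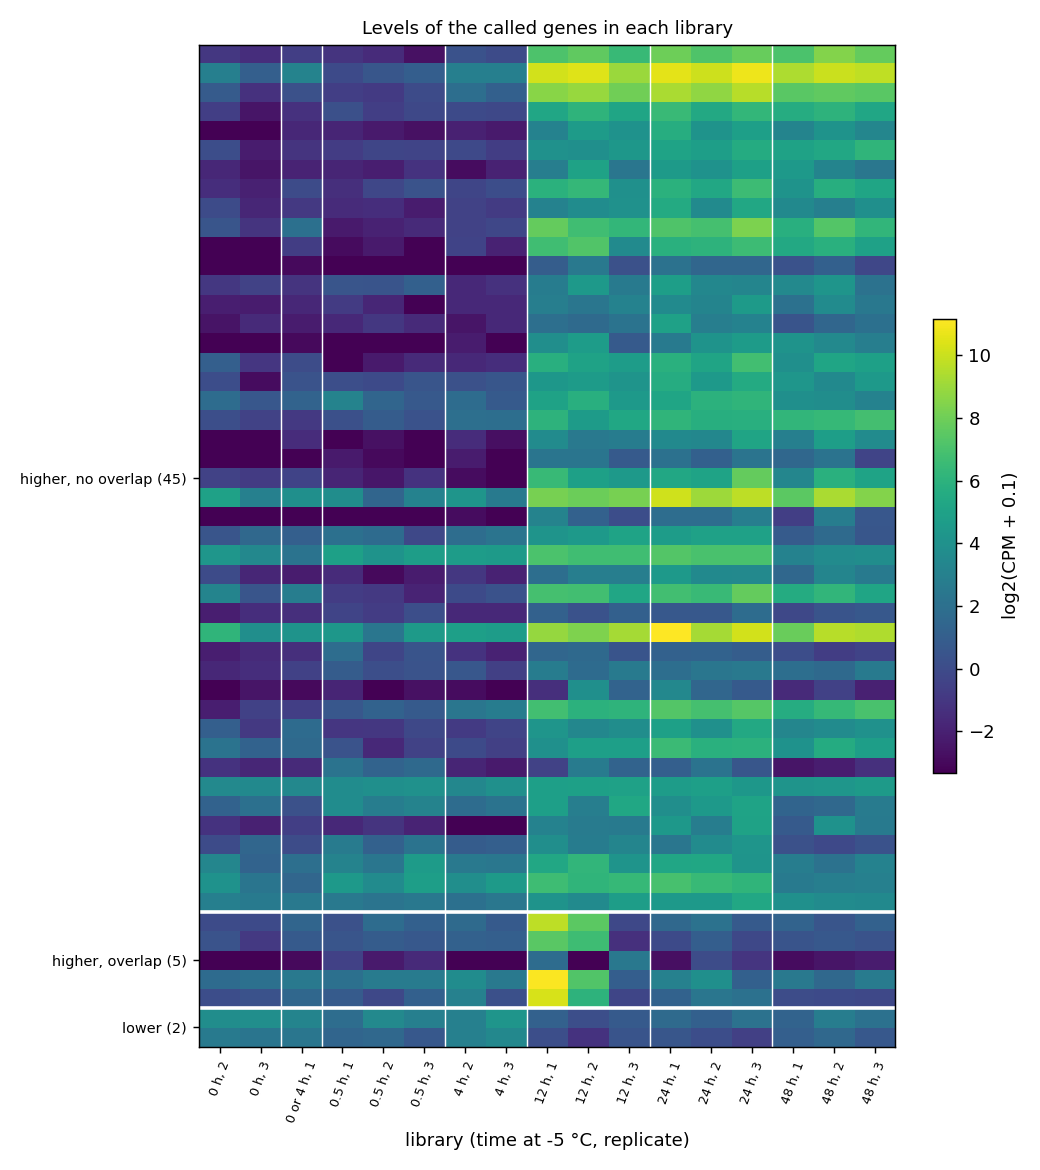
Log2(CPM + 0.1) of the 50 higher and 2 lower genes (rows) in the 17 distinct libraries (columns, in time order), with the 45 higher genes that do not overlap, the 5 that do and the 2 lower genes as blocks. Dark colours are low and bright ones high: most rows of the first block are dark up to 4 h and brighter from 12 h on, and 4 of the 5 rows of the second block are bright in 12 h replicates 1 and 2 only.

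Libraries of 24 h, 48 h and 0.5 h were not in the contrast that chose the genes, although they entered its shared estimate of spread. A fit of those 9 libraries alone compared 24 and 48 h with 0.5 h. Of the 50 genes, 32 were called higher at 24 and 48 h and 0 lower, in a fit where 182 of 53887 genes (0.338%) were called higher and 232 (0.431%) lower. At an unadjusted p under 0.05 those shares were 4.37% and 5.82%. In the same fit 44 of the 50 had a positive log2 fold change and their median was 5.68, where 46.05% of all tested genes were positive and the median was -0.07. Some of the 50 had no reads at 0.5 h and passed this fit's filter on low counts only through 24 and 48 h. For those genes a positive sign was set by the filter. The 32 called genes had a median of 0.264 CPM at 0.5 h, so more of them may have entered that way. Neither lower gene was called in this fit, with log2 fold changes of -1.0 (adjusted p = 0.481, edgeR) and -0.70 (adjusted p = 0.646). This fit shares no library with the 12 h comparison, but it asks about later times against an early one and is no repeat of 12 h itself.

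**Figure D4:**
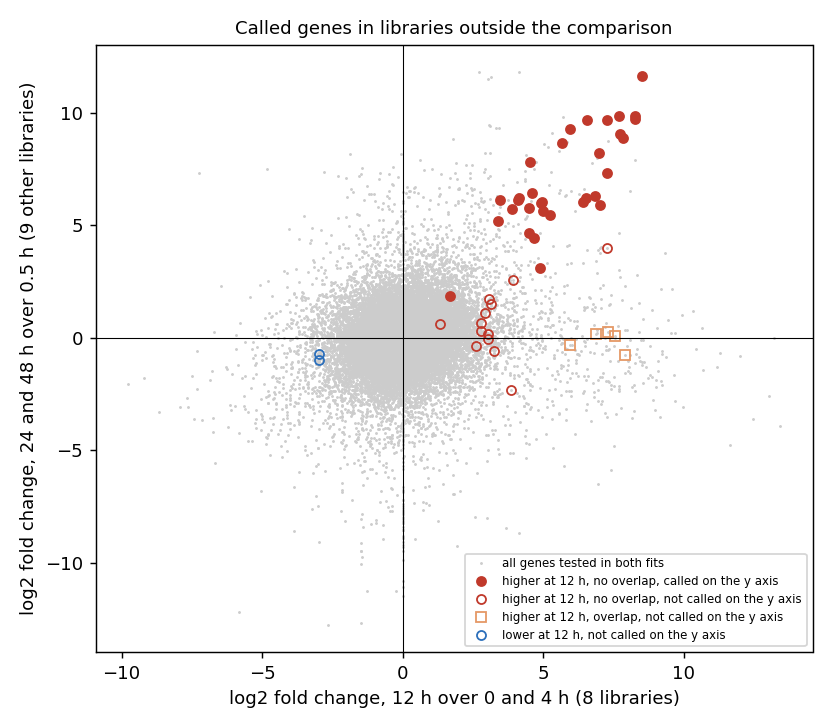
Each marker is 1 of the 52 called genes, and grey dots are all genes tested in both fits; the horizontal axis is the log2 fold change of 12 h over 0 and 4 h, and the vertical axis that of 24 and 48 h over 0.5 h, from separate libraries. Filled markers, 32 in number, were called on the vertical axis, and all of them lie in the upper right.

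The 32 genes called higher at 24 and 48 h than at 0.5 h lay in 19 components. The medians of their mean levels over 0.5, 12, 24 and 48 h were 0.264, 19.9, 38.5 and 22.4 CPM, with 0.539 CPM in the pool. One of them had 465.6, 334 and 605 CPM at 12 h, against 14.1 to 71.7 CPM in the pool, and had 2309, 607 and 1162 CPM at 24 h, so its 24 h libraries spread widely. A further gene had 65.9, 24.6 and 39.3 CPM at 12 h, against 0.435 to 3.84 CPM in the pool, with its 2 pool values above 3 CPM both at 4 h. That gene was high later too, with 70.5, 54.9 and 56.0 CPM in the 24 h libraries and 75.4, 84.5 and 116 CPM in the 48 h libraries.

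At 24 h against 12 h, edgeR with all libraries called 0 genes higher (0%) and 0 lower (0%) among all 61998, with 466 higher (0.752%) and 950 lower (1.53%) at an unadjusted p under 0.05; DESeq2 called 68 and limma 0. Of the 50 higher genes, DESeq2 called 4 lower at 24 h, and edgeR called 2 lower when 12 h replicate 3 was left out. The 50 higher genes had a median log2 fold change of 0.50 for 24 h over 12 h. This contrast reuses the 12 h libraries that chose the 50 genes, which favours a later fall. A difference that misses the threshold at 3 libraries against 3 does not show equal levels.

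At 48 h against 12 h, 8 genes were higher (0.0129%) and 41 lower (0.0661%) among all 61998 (4.22% and 6.61% at an unadjusted p under 0.05). Of the 50, 4 were among those called lower. The 12 h libraries of this contrast also chose the 50 genes, which favours a later fall, so the share over all genes is no fair background. Those 4 genes, in 3 components, had higher mean levels at 12 and 24 h than at the other times. In 1 of them the times overlapped, with 6.56 CPM in 0.5 h replicate 1, against 6.79 CPM in 12 h replicate 2 and 4.97 CPM in 24 h replicate 1. Over 0.5, 12, 24 and 48 h the medians of their mean levels were 12.6, 55.7, 61.7 and 4.59 CPM, with 7.60 CPM in the pool. The clearest of them had 8.34, 12.8 and 13.5 CPM at 48 h against 137, 108 and 108 CPM at 12 h (adjusted p = 0.0179, edgeR), while it had 156, 129 and 130 CPM at 24 h and 4.43 to 26.0 CPM in the pool. Another had 1.68, 3.16 and 1.37 CPM at 48 h against 18.4, 23.2 and 34.1 CPM at 12 h (adjusted p = 0.0199, edgeR). In both, the 3 libraries of 48 h were as low as the pool. These calls depend on single libraries: 0 of the 50 were called lower at 48 h without 12 h replicate 2 or without any 1 of the 48 h libraries, and 2 without 12 h replicate 1.

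The 5 genes that overlapped were high in only some of the 12 h libraries. One of them had 2149, 150 and 1.92 CPM in 12 h replicates 1, 2 and 3, against 3.28 to 13.4 CPM in the pool (log2 fold change 6.90, SE 1.23, adjusted p = 0.0441, edgeR). A second had 852, 181 and 0.790 CPM in the same order, against 0.858 to 3.10 CPM. Another had 1268, 66.2 and 0.730 CPM, against 0.958 to 8.01 CPM, and the fourth 179, 100.2 and 0.304 CPM, against 0.429 to 2.14 CPM. In all 4, replicate 1 was highest, replicate 2 was next and replicate 3 was below every pool library. At 24 and 48 h these 4 genes lay between 0.790 and 14.6 CPM, close to the pool. The fifth gene had 3.44, 0 and 5.47 CPM at 12 h, against 0 in 4 pool libraries and 0.0290 CPM in the library of 0 or 4 h. None of the 5 was called at 24 and 48 h against 0.5 h in edgeR, and 0 of them kept the call in every fit with 1 library left out.

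The 9 remaining genes had a median log2 fold change of 3.07. Across 0.5, 12, 24 and 48 h the medians of their mean levels were 3.26, 5.79, 4.996 and 3.86 CPM, with 0.622 CPM in the pool. In this group lies the smallest change that was called, a gene with 29.3, 30.03 and 31.1 CPM at 12 h, against 10.4 to 15.1 CPM in the pool (log2 fold change 1.34, SE 0.230, adjusted p = 0.0309, edgeR). Its 12 h libraries were nearly equal, and it had 13.2 to 15.9 CPM at 0.5 h and 18.2 to 23.7 CPM at 48 h. Another gene of this group had 0.622, 6.35 and 2.34 CPM at 12 h, against 0.106 to 0.342 CPM in the pool, but was already at 4.44, 2.32 and 3.01 CPM at 0.5 h. It was low at 0 h and 4 h, high at 0.5, 12 and 24 h, and low at 48 h, with 0.0783 to 0.303 CPM.

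The share of all counts that fell on the 50 genes shows how much of the library they took. It was 0.717, 0.323 and 0.336% in the 12 h libraries, against 0.0109 to 0.0170% in the pool. It was 0.0120 to 0.0243% at 0.5 h, 0.550, 0.416 and 0.820% at 24 h and 0.191, 0.526 and 0.276% at 48 h. The 5 overlapping genes supplied 0.382% of the counts in 12 h replicate 1, 0.0356% in replicate 2 and 0.00117% in replicate 3. Without them, the 3 libraries of 12 h lay close together.

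**Figure D5:**
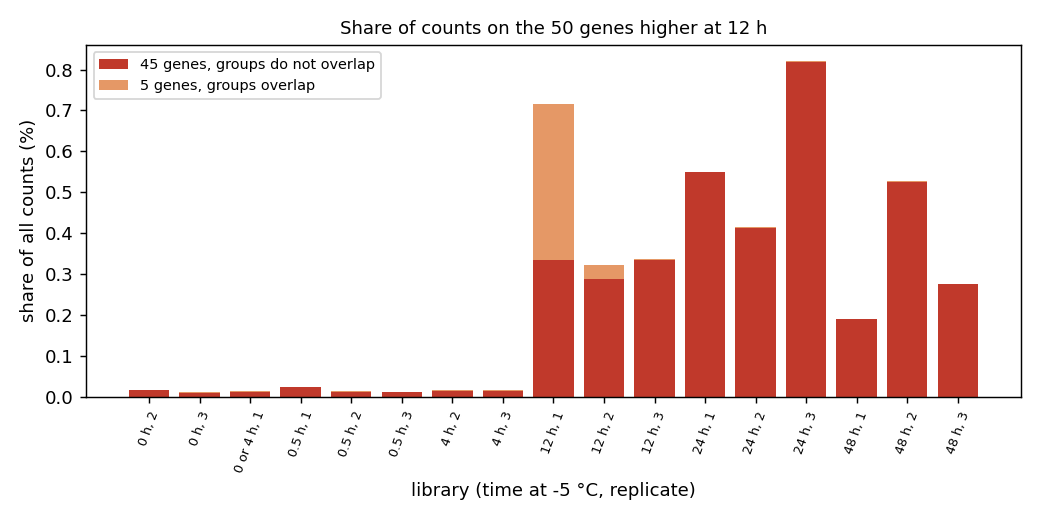
Percent of a library's counts on the 50 higher genes, 1 bar a library in time order, split into the 45 genes that do not overlap with the pool and the 5 that do. Bars up to 4 h are at most 0.0243% and those from 12 h at least 0.191%; the 5 overlapping genes are visible in 12 h replicates 1 and 2.

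Of the 37 components with a called gene, 13 held more than 1, together 28 of the 52 genes and at most 4 in 1 component. No component held both directions. The 37 components also held 77 tested genes that were not called, of which 67 had a positive and 9 a negative log2 fold change, with a median of 2.19. At an unadjusted p under 0.05, 48 of the 77 were higher (62.3%) and 1 was lower, where the share over all genes was 5.26%. Genes of a component share sequence, so these are not independent of the called genes. When counts were summed over each component, 33 components were higher and 2 lower of 27575 tested. Called among them were 26 of the 35 components with a higher gene and 2 of the 2 with a lower gene. The sums hold the called genes' own reads in the same libraries, so they are no separate check.

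No measure of the whole library was called different between 12 h and the pool. Genes detected at 1 CPM or more numbered 32539 ± 3910 at 12 h (SD, n = 3) and 33063 ± 3085 in the pool (SD, n = 5), with adjusted p = 0.857 in a two-sided exact permutation test. For this count alone, CPM was not scaled for composition. The share taken by the 100 most abundant genes was 32.2 ± 7.86% at 12 h (SD, n = 3) and 31.1 ± 4.37% in the pool (SD, n = 5), with adjusted p = 0.857 in the exact permutation test. Genes that did not pass the filter on low counts held 0.632 ± 0.165% of counts at 12 h and 0.418 ± 0.177% in the pool (exact permutation adjusted p = 0.429). Such genes can still be high in 1 library. With 3 libraries against 5, the smallest p these tests can give is 0.0357 before adjustment. After adjustment over the measures, 1 measure alone could not reach an adjusted p under 0.05. Genes with at least 90% of their reads in 1 library held 4.11% of the counts of 12 h replicate 1, 0.638% of replicate 2 and 0.00382% of replicate 3, against at most 0.0567% in the pool. The share was 6.14% in 24 h replicate 2, which also had 6.67% of its counts on untested genes, and at most 0.0458% in the other libraries of 0.5, 24 and 48 h. The part of these shares in the calls was not tested. Without 24 h replicate 2, 29 of the 50 genes were called higher at 24 and 48 h than at 0.5 h.

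Which genes passed depended on the libraries of the fit. The fit had 17 libraries, and leaving out 1 at a time gave 26 to 82 higher and 0 to 6 lower genes, and 25 of the 50 higher genes were called in all 17 such fits. The count was 78 without 12 h replicate 1 and 82 without 12 h replicate 3, but 34 and 41 of the 50 were among those called; without 12 h replicate 2, 40 of the 50 were. Dropping 0 h replicate 3 left 26 higher genes, dropping 4 h replicate 2 left 31 and dropping 4 h replicate 3 left 30. Among the genes that stayed high, 23 of 32 were called in all 17 fits, against 1 of 4, 0 of 5 and 1 of 9 in the other groups. These fits reuse the libraries that chose the genes, and the groups were formed from the same values. The order of the groups is thus a description only.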

How the data were processed

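Leaf polyadenylated RNA of 18 samples was sequenced; the submitters' processing notes name Trimmomatic 0.36 and FastQC. For the aligner, counter and assembly settings, the sources used here give nothing. The authors deposited estimated counts per assembled gene (expected counts), and a signal table scaled for gene length whose exact unit no source names. Sample titles tied each column to its sample. Counts were rounded to whole numbers and tested with edgeR 4.0.16 under R 4.3.3 (filterByExpr on 5 groups: 0 and 4 h pooled, 0.5, 12, 24 and 48 h; TMM; quasi-likelihood F test; Benjamini-Hochberg), called at an adjusted p under 0.05. The fit had 17 libraries, 12 residual degrees of freedom and a biological coefficient of variation of 68.7%. The SE is the absolute log2 fold change over the square root of F. Levels are CPM, as mean ± SD. Numbers of genes detected use CPM without the scaling for composition. The procedure was run on simulated counts, with changes placed only in genes above a minimum mean level. All libraries of a group had the same expected level there. The simulation thus says nothing of genes as low in the pool as most called ones, or high in only some 12 h libraries.

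Identifiers were printed for the 2 called genes of smallest p in each direction whose groups did not overlap, at most 1 a component; all other genes singled out were chosen after their values were seen. Gene lists and leaf markers could not be run because the files do not pair identifiers with names. Members, lists and alternatives were chosen with earlier results of these data known. Replicate numbers were not taken as pairs, since the labels give them no meaning.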

Additional observations from a re-analysis of the deposited data

Results flagged for a closer look

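One value stood apart within its group. TRINITY_DN212538_c1_g1 had 1.99 CPM in 0 h replicate 3, below the other pool libraries, which had 7.44 to 8.93 CPM; the gap to the nearest was 0.785 of the group's range, past Dixon's limit for 5 samples. Of 8 groups of 5 checked, 1 was flagged, and chance flags about 1 in 20 groups.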

How the results depend on the processing

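The 2 higher genes printed by identifier kept their direction and call in every alternative run on genes; the 2 lower genes kept their direction but lost the call in 16 (TRINITY_DN206455_c0_g1) and 17 (TRINITY_DN194470_c1_g1) of 31 settings each, among them the replicate block, library size alone and the 8 libraries alone. With 50 genes higher and 2 lower as reported, RLE size factors gave 50 and 2 and robust shrinkage 49 and 2. Library size alone gave 42 and 1, of which 36 and 0 were among those reported. The replicate block gave 32 and 0, no filter 1380 and 421, a filter of 1 CPM in 3 libraries 52 and 2, and the 8 libraries alone 20 and 0. With 16 libraries, without the identical column and with separate means for 0 h and 4 h, 53 and 1 were called (35 of the 50 among them). The identical column at 0 h, with 12 h against 0 h, gave 33 and 1, of which 29 and 0 were among those reported. That column at 4 h, with 12 h against 4 h, gave 20 and 0. Limma gave 45 and 4, of which 35 and 1 were among those reported. An adjusted p of 0.01 gave 26 and 0, component sums 33 and 2, DESeq2 464 and 165, and an adjusted p of 0.1 130 and 9. The cause of these moves was not tested, beyond the fewer or more genes and libraries that some settings hold by construction. Leaving out 1 library gave 26 to 82 higher and 0 to 6 lower. Replicate numbers showed no clear pairing of samples. Over 36 pairs of libraries with the same number the median correlation of deviations was -0.051, with 6 over 0.1. Over 70 pairs with other numbers the median was 0.025, with 18 over 0.1. Among the 50 genes, DESeq2 called 4 lower at 24 h than at 12 h, and leaving out 1 library 0 to 2; at 48 h against 12 h DESeq2 called 13 lower, the replicate block 0 and leaving out 1 library 0 to 6. At 24 and 48 h against 0.5 h DESeq2 called 1 of the 50 lower. The difference in genes detected was 1911.7 at 0.1 CPM, against -523.6 at 1 CPM; leaving out 1 library it was -2748.1 to 919.9, and that in the share of the 100 most abundant genes was -1.95 to 5.47. The limits are 3 libraries at 12 h, 1 pot a time and a pool made of 2 times.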
